A study of Mus musculus with 6 samples.

Results

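The genes described here are 49 rows of a table of messenger RNA levels in mouse microglia, the resident macrophages of the brain. They are the rows that the table's KEGG annotation assigns to autophagy or mitophagy in animals, less the rows it also assigns to the lysosome, protein processing in the endoplasmic reticulum, Toll-like receptor, TNF or NF-kappa B signalling, and less Ddit4. Of 4656 rows in all, 73 carried one of these pathways, 24 of them fell under the exceptions and 49 remained. Autophagy alone was assigned to 26 of the 49, mitophagy alone to 13 and both to 10. The RNA came from 3 libraries of Nus1fl/fl mice (Ctrl), in which Nus1 carries the sites for Cre recombination, and 3 libraries of Nus1cKO mice (cKO), in which the gene was to be deleted. Nus1 encodes a subunit of the enzyme that makes dolichol, the lipid carrier of sugar chains for protein N-glycosylation. Per the labels, tamoxifen, the drug that activates inducible Cre, was injected at 100 mg/kg on 5 days in a row from postnatal day 28. The brains were perfused and collected 30 days after the last dose, and microglia were sorted by flow cytometry. Growth of primary microglia in serum medium is also described, without a statement that the sequenced cells were grown so. The labels say nothing of the Cre driver, of Cre or the drug in Ctrl mice in particular, of sex or of how many animals made up a library.

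Autophagy encloses cytoplasm in a double membrane and delivers it to the lysosome. A kinase complex around ULK1 or ULK2 starts the process, a lipid kinase complex around Beclin 1 marks the membrane with phosphatidylinositol 3-phosphate (PI3P), and a ubiquitin-like conjugation system attaches LC3 and GABARAP proteins to it. Cargo receptors bind ubiquitin on one side and LC3 on the other. Mitophagy is the removal of mitochondria by this route, through the kinase PINK1 and the ligase Parkin or through receptors in the outer mitochondrial membrane. The kinase complex mTORC1 restrains autophagy when nutrients suffice. In microglia the pathway is known for its part in clearing engulfed material.

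Each row of the deposited table had passed the authors' test at a q-value under 0.05, so every gene here was chosen on these libraries already, and a gene of the pathway without a row is unknown. In the authors' deposited table the fold change was above 0 for 30 of the 49 genes and below 0 for 19 (cKO over Ctrl); of the 15835 genes adjusted over, the authors called 29.4%, 13.7% as higher and 15.7% as lower. The rows used here summed to between 10786150 and 11033144 reads per library, an unknown portion of what was sequenced. The targeted gene checked the labels: Nus1 had 59.4, 60.9 and 59.2 TPM in Ctrl and 14.1, 13.6 and 13.8 TPM in cKO (TPM, reads scaled by gene length and library). Between replicates the mean chi-square per gene ranged from 1.31 to 1.75 in Ctrl and from 1.38 to 2.18 in cKO, where the 2 highest values were those with cKO replicate 2; sampling of reads alone gives about 1. Of 12 microglial markers 6 had a row (Csf1r, Cx3cr1, Itgam, Tyrobp, Fcrls and Trem2), summing to between 1177 and 1242 TPM in Ctrl and between 1123 and 1196 TPM in cKO. Itgam rose (0.73 on the log2 scale), while Cx3cr1 (-0.52), Fcrls (-0.45), Trem2 (-0.11), Tyrobp (-0.11) and Csf1r (-0.09) fell, the last 3 no longer with RLE, upper-quartile factors or DESeq2. Tyrobp made up most of the sum, and P2ry12, Tmem119, Aif1, Sall1 and Siglech were among those without a row. Of 8 markers of border-associated macrophages the 3 with a row, Ms4a7, Folr2 and Mrc1, summed to between 49.9 and 62.0 TPM in Ctrl and between 27.4 and 32.0 TPM in cKO. Of 7 monocyte markers listed, Ms4a4c had 4.62, 2.21 and 3.74 TPM in Ctrl and 1.14, 0.55 and 0.89 TPM in cKO, and Ly6c2 was listed at 0 in every Ctrl library and at 0.550 to 0.710 TPM in cKO. The astrocyte marker Aldh1l1 and the endothelial marker Pecam1 stayed under 1 TPM in every library, and no neuronal or oligodendrocyte marker had a row. The part of these shifts in the results below was not tested, and in such bulk samples fewer cells of a type and less RNA per cell cannot be told apart.

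More of the 49 genes were higher than lower in cKO, by small amounts. At an adjusted p under 0.05 (edgeR quasi-likelihood test on the whole table, Benjamini-Hochberg adjustment over 15835 genes), 30 rose, 17 fell and 2, Nras and Mtor, did not pass. Of all 4641 genes fitted, 96.7% were called, 46.4% as higher and 50.2% as lower, so that being called says nothing about these genes and only the direction can be read against that background. The share that rose was 61.2% here. The median log2 fold change was 0.20, beside -0.08 over all genes fitted, and the values ran from -0.44 to 0.99. Among them 11 rose and 2 fell by 0.4 or more on the log2 scale, where 21.0% of all genes fitted rose and 5.47% fell by that much. All 30 genes that rose had TPM values without overlap between the groups, as did all 17 that fell; of all genes fitted 97.6% had no overlap, 46.0% with higher and 51.6% with lower values in cKO. An exact permutation test of 3 against 3 libraries cannot go below p = 0.1, and 47 of the 49 genes reached that value. The labels call the libraries biological replicates without saying which animals they came from, and the p-values hold for the spread among these libraries, which may be technical.

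**Figure D1:**
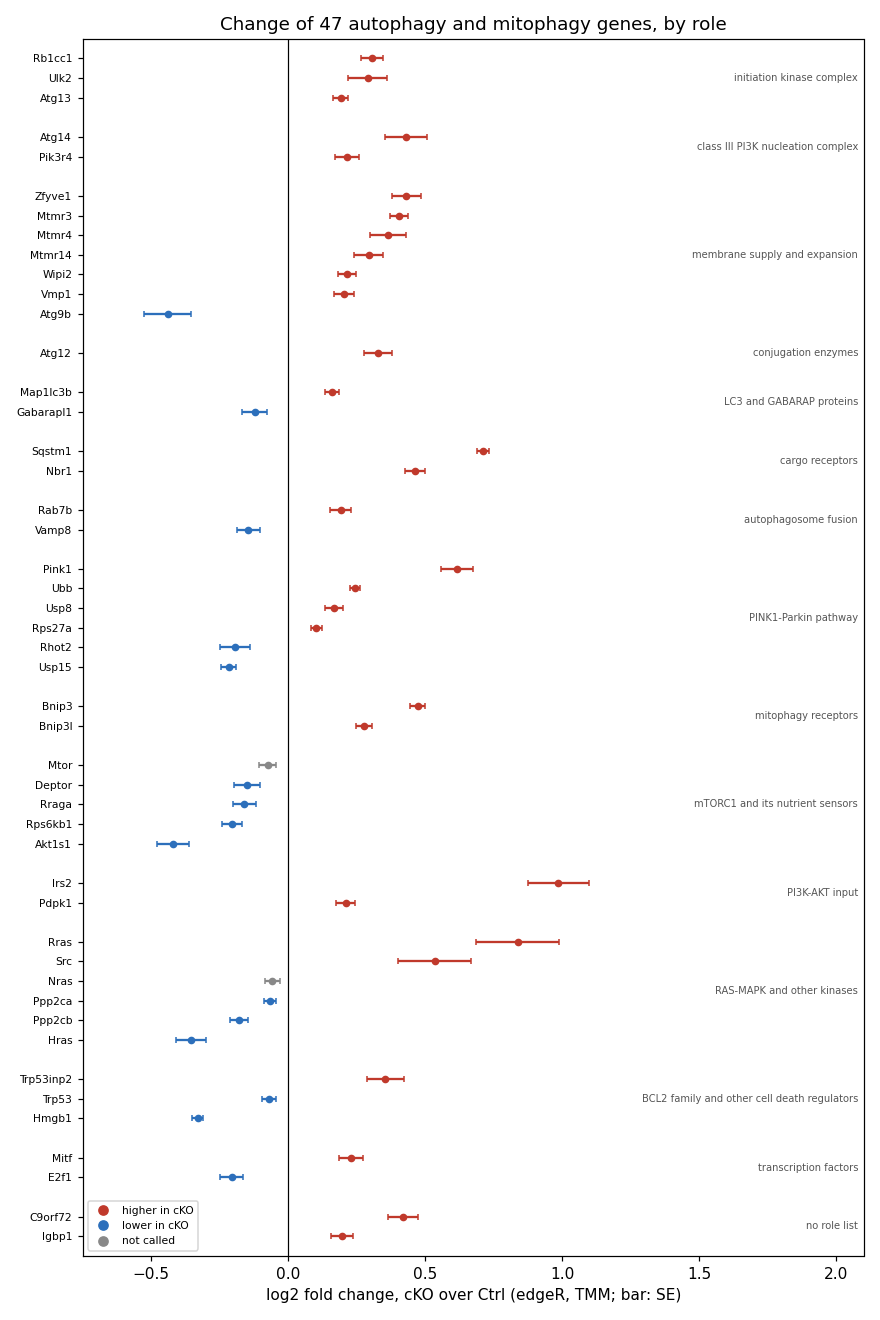
Log2 fold change (cKO over Ctrl, edgeR with TMM scaling) on the x axis for 47 of the 49 genes, grouped by role; bars are SE, and colour gives the call at an adjusted p under 0.05. Irs2 (0.99), Rras (0.84), Sqstm1 (0.71) and Pink1 (0.62) lie farthest to the right, and the 5 genes of mTORC1 and its sensors all lie to the left of 0.

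How the libraries are scaled decides part of the decreases. With RLE or upper-quartile factors 30 genes rose and 10 fell, so that 75% of the calls were higher in place of 63.8%, and with DESeq2 30 rose and 8 fell (78.9% higher). The whole table shifted the same way. Of all its calls 48.0% were higher with TMM, 53.5% with RLE, 55.5% with upper-quartile factors and 58.9% with DESeq2. With the authors' size factors 30 rose and 19 fell, the same counts as in the authors' test that chose the rows. The TMM, RLE, upper-quartile and DESeq2 factors rest on rows chosen for a group difference, so they cannot decide which decreases hold. The 30 increases passed the test in every scaling, every other test tried and with each library left out. Of the 17 decreases 8 did so as well: Atg9b, Akt1s1, Hras, Hmgb1, Usp15, E2f1, Rps6kb1 and Ppp2cb. Those lost included Ppp2ca, Trp53, Gabarapl1, Vamp8 and Deptor with RLE, with upper-quartile factors and with DESeq2, and Rraga and Rhot2 with DESeq2. No gene changed direction in any of these fits. Over all genes fitted, 2155 were called higher with TMM, RLE, upper-quartile factors, library size alone and the authors' size factors. With a library left out between 2153 and 2159 were, so the persistence of the 30 increases is not particular to them.

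**Figure D2:**
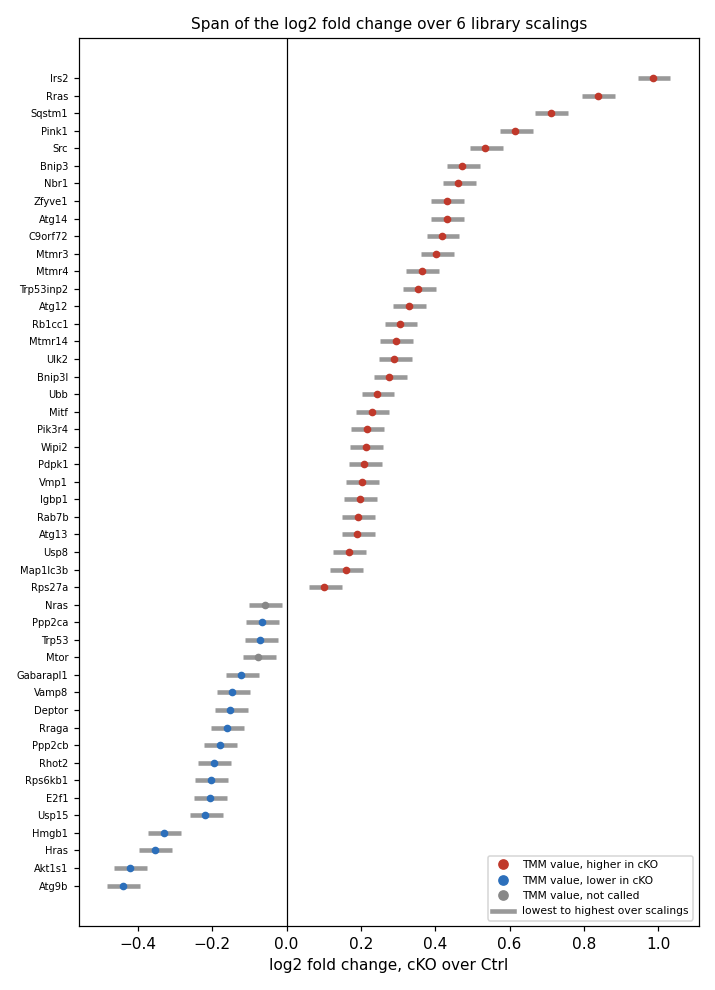
Log2 fold change (x axis) of 47 of the 49 genes, ordered by value; dots are the TMM values coloured by call, and grey bars span the lowest to the highest value over 6 library scalings. The bars of Nras, Ppp2ca, Trp53 and Mtor end close to 0 and none crosses it.

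Among cargo receptors Sqstm1 and Nbr1 rose. Sqstm1 encodes p62, which links ubiquitin-marked cargo to LC3 and is itself degraded by autophagy. Sqstm1 (ENSMUSG00000015837, chromosome 11, 50090979 to 50105303; positions of genes are in mm39) had 358, 344 and 359 TPM in the Ctrl libraries and 567, 573 and 579.7 TPM in the cKO libraries. All cKO libraries lay above all Ctrl libraries, and the spread within each group was small beside the gap. The group levels were 354 ± 8.34 TPM in Ctrl and 573 ± 6.34 TPM in cKO (SD, n = 3 each). This was a log2 fold change of 0.71 ± 0.02 (SE, edgeR, adjusted p = 1.4e-26), a fold of 1.64. Nbr1 (ENSMUSG00000017119, chromosome 11, 101442933 to 101472777), a receptor built like p62 that also takes part in the removal of peroxisomes, had 27.6, 26.1 and 25.0 TPM in the Ctrl libraries and 36.8, 36.0 and 34.2 TPM in the cKO libraries. Its log2 fold change was 0.46 ± 0.04 (adjusted p = 4.4e-13), again with no overlap. Of 12 cargo receptors listed, 5 had a row and all 5 rose. The 3 outside the KEGG pathways were Calcoco1 (0.46) and Ccpg1 (0.43), both receptors for parts of the endoplasmic reticulum, and the large scaffold Wdfy3 (0.22), which helps in clearing protein aggregates. Sqstm1 was the third highest by log2 fold change among the 49 genes and, at 354 to 573 TPM, far more abundant than Irs2 and Rras above it.

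Both mitophagy receptors among the 49 genes rose, and genes around PINK1 and Parkin moved both ways. The mitochondrial kinase Pink1 (ENSMUSG00000028756, chromosome 4, 138040718 to 138053631) builds up on damaged mitochondria and phosphorylates ubiquitin there. It had 16.7, 17.9 and 16.5 TPM in the Ctrl libraries and 26.6, 24.8 and 26.0 TPM in the cKO libraries, with a log2 fold change of 0.62 ± 0.06 (SE, adjusted p = 2.7e-11). Bnip3 (ENSMUSG00000078566, chromosome 7, 138492565 to 138511235), an outer-membrane receptor induced by low oxygen, had 172, 181 and 179.8 TPM in the Ctrl libraries and 253, 238 and 242 TPM in the cKO libraries. Its log2 fold change was 0.47 ± 0.03 (adjusted p = 3.3e-17). The related receptor Bnip3l, known as NIX and needed for clearing mitochondria from maturing red cells, had 59.2, 63.8 and 62.2 TPM in the Ctrl libraries and 74.5, 73.5 and 73.9 TPM in the cKO libraries, a log2 fold change of 0.28 ± 0.03. In all of these the cKO libraries lay above every Ctrl library. Prohibitin 2 (Phb2), an inner-membrane receptor outside the KEGG pathways, went the other way, from 450.1 to 373 TPM (log2 fold change -0.26), so that of 9 mitophagy receptors listed 3 had a row, 2 rose and 1 fell.

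Deubiquitinases that act on Parkin's substrates or on Parkin differed in direction. Usp15, which removes ubiquitin that Parkin places on mitochondria, had 107, 98.4 and 103 TPM in Ctrl and 81.7, 83.6 and 86.3 TPM in cKO, a log2 fold change of -0.22 ± 0.03 (SE, edgeR, adjusted p = 3.7e-08). Usp8, which removes ubiquitin from Parkin itself, had 38.4, 38.8 and 40.3 TPM in Ctrl and 42.3, 44.3 and 43.9 TPM in cKO and a log2 fold change of 0.17 ± 0.03. Rhot2 encodes Miro2, a Parkin substrate that couples mitochondria to motor proteins. It had 20.9, 21.3 and 19.9 TPM in Ctrl and 17.1, 17.9 and 18.7 TPM in cKO (log2 fold change -0.20 ± 0.05). The groups did not overlap for any of these, but the call of Rhot2 was lost with DESeq2, where its value was -0.16. Tomm20, a listed import receptor outside the KEGG pathways, fell by 0.12 on the log2 scale. Of 28 genes listed for this pathway 12 had a row, of which 5 rose, 6 fell and 1, the casein kinase subunit Csnk2a1, did not pass.

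Genes that encode ubiquitin were the most abundant. Rps27a, whose product is ubiquitin fused to a ribosomal protein, had 3531, 3579 and 3576 TPM in Ctrl and 3959, 3775 and 3721 TPM in cKO. The polyubiquitin gene Ubb had 1379, 1387 and 1367 TPM in Ctrl and 1595, 1643 and 1593 TPM in cKO, again with no overlap between the groups. Ubb rose by 0.24 ± 0.02 and Rps27a by 0.10 ± 0.02 on the log2 scale (SE), the latter by 0.06 with the authors' size factors. Both genes hold the same coding unit and Rps27a has processed pseudogenes, so reads could be split wrongly and their separate values are uncertain.

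**Figure D3:**
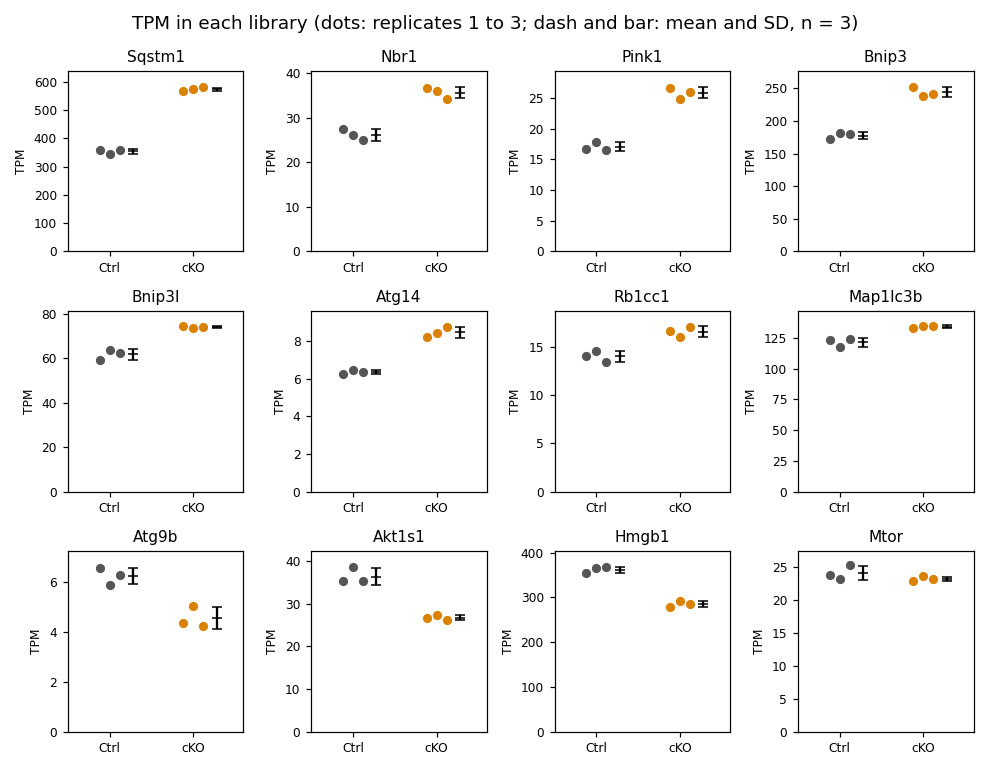
TPM (y axis, from 0) in each Ctrl and cKO library for 12 of the genes; dots are replicates 1 to 3, and the dash with its bar is the mean and SD (n = 3). Sqstm1 lies between 344 and 359 TPM in Ctrl and between 567 and 579.7 TPM in cKO, while the ranges of Mtor overlap.

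Promoters were read for 38 of the 49 genes from the RefSeq table (build GRCm38.p6, 250 bases before to 50 after each start, all starts of a gene). Shown are the 250 bases before the start of Sqstm1 and Bnip3, the cargo and mitochondrial receptors with the highest levels among those that rose, of Irs2, the gene with the highest log2 fold change, and of Rhot2, which fell. Each is printed 5′ to 3′ on its own strand, which is minus for all of them in RefSeq, and capitals mark matches to the motifs named after them.
Sqstm1, chr11:50210821-50211070: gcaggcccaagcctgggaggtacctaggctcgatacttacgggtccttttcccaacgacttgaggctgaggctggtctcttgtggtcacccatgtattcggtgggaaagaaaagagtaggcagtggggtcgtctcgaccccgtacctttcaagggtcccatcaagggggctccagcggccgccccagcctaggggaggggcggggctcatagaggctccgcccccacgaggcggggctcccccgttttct
Bnip3, chr7:138909507-138909756: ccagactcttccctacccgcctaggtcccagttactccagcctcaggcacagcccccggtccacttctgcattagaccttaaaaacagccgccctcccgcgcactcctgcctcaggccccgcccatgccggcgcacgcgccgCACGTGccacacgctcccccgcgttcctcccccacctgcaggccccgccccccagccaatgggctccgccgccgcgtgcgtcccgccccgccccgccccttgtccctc
Irs2, chr8:11008930-11009179: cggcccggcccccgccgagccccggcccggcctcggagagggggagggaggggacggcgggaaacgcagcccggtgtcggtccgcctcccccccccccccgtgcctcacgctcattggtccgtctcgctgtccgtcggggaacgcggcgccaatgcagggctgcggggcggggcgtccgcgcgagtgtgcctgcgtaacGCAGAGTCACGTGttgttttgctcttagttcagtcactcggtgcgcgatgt
Rhot2, chr17:25844526-25844775: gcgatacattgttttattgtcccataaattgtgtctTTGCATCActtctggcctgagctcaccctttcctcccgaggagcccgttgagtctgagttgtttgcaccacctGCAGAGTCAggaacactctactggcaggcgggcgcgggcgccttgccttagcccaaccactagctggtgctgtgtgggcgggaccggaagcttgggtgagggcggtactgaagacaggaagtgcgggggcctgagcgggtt
Motifs were searched on both strands. CACGTG, the core of the CLEAR element bound by TFEB, TFE3 and MITF and also an E-box for other factors, was found in 7 of 38 genes (18.4%), beside 13.2% of the 3823 genes of the deposited table and 8.09% of all 27025 genes with a promoter entry. Among the genes that rose it was found in 4 of 23, Irs2, Bnip3, Atg14 and Igbp1, and among those that fell in 2 of 13, Hmgb1 and Trp53; the remaining one was Nras. The full palindromic CLEAR element, which contains that core, was found in 0 of 38, beside 0.370% of all genes. The composite element of CHOP and ATF4, TTGCATCA, was found in 1 of 38, Rhot2, beside 1.03% of all genes. TGACNNNGC, the core of the antioxidant response element, was found in 10 of 38 (26.3%), beside 17.8% of the genes of the deposited table and 14.0% of all genes. Of those that rose 8 of 23 held it, with 1.43 starts per gene, beside 1.22 over all genes, and of those that fell 2 of 13. In Irs2 this core, read on the other strand, overlaps the E-box. The forkhead motif TGTTTAC was found in 2 of 38, Mtmr14 and Nras, beside 4.05% of all genes. None of the motifs was found in the Sqstm1 window. A match describes letters in these windows and is not evidence of binding.

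Of 5 listed genes of the initiation complex 3 had a row, and those 3 rose. Rb1cc1 encodes FIP200, the scaffold of the complex, and had 14.1, 14.5 and 13.4 TPM in Ctrl and 16.6, 16.0 and 17.1 TPM in cKO. Its log2 fold change was 0.31 ± 0.04 (SE, edgeR, adjusted p = 8.6e-08). Atg13, the adaptor between kinase and scaffold, had 73.5, 76.4 and 77.3 TPM in Ctrl and 84.9, 87.4 and 84.0 TPM in cKO, a log2 fold change of 0.19 ± 0.03. The kinase Ulk2 had 5.51, 4.53 and 5.34 TPM in Ctrl and 6.25, 6.44 and 5.80 TPM in cKO (0.29 ± 0.07, adjusted p = 0.00093). Groups did not overlap, although the lowest cKO and highest Ctrl values of Ulk2 lay close together. C9orf72, which acts in a complex linked to the start of autophagy and whose human gene carries a repeat expansion in motor neuron disease, was in no list fixed for these roles. It had 15.3, 14.5 and 14.2 TPM in Ctrl and 19.8, 19.9 and 18.5 TPM in cKO, with a log2 fold change of 0.42 ± 0.05 (adjusted p = 4.5e-08).

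In the lipid kinase complex, Atg14 and Pik3r4 rose. Atg14, the subunit that directs the complex to forming autophagosomes, had 6.23, 6.46 and 6.37 TPM in the Ctrl libraries and 8.21, 8.43 and 8.77 TPM in the cKO libraries, and its log2 fold change was 0.43 ± 0.08 (SE, edgeR, adjusted p = 1.3e-05). Pik3r4, the regulatory subunit known as VPS15, had 15.0, 15.5 and 15.1 TPM in Ctrl and 17.4, 17.5 and 17.4 TPM in cKO (log2 fold change 0.22 ± 0.04). Neither gene had overlapping groups. Of 10 genes listed 3 had a row; the remaining one, the ATPase Ruvbl1, is outside the KEGG pathways, acts mainly in chromatin and ribonucleoprotein assembly, and fell by 0.36. Beclin 1 and the catalytic subunit had no row.

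Genes that read, remove or follow PI3P rose together with those of membrane growth, with Atg9b as the exception. Of 14 listed genes 7 had a row, of which 6 rose and 1 fell. Zfyve1 encodes DFCP1, a PI3P-binding protein of the omegasome, the site where autophagosomes form. It had 10.7, 11.0 and 10.6 TPM in Ctrl and 14.3, 14.7 and 13.9 TPM in cKO, with a log2 fold change of 0.43 ± 0.05 (SE, edgeR, adjusted p = 9.9e-09). Wipi2, the PI3P reader that recruits the conjugation machinery, had 35.9, 37.7 and 37.4 TPM in Ctrl and 42.2, 42.2 and 42.8 TPM in cKO (0.21 ± 0.03). Vmp1, an endoplasmic reticulum lipid scramblase needed for membrane growth, had 45.4, 44.9 and 47.6 TPM in Ctrl and 55.5, 53.2 and 51.0 TPM in cKO (0.20 ± 0.04). The myotubularin phosphatases remove the phosphate that the lipid kinase adds, and all 3 with a row rose. Mtmr3 had 22.0, 22.5 and 23.2 TPM in Ctrl and 29.1, 30.4 and 29.1 TPM in cKO (0.40 ± 0.03, adjusted p = 8.8e-13). Mtmr4 had 6.30, 6.83 and 5.72 TPM in Ctrl and 8.23, 7.72 and 8.10 TPM in cKO (0.36 ± 0.06), and Mtmr14 23.2, 22.1 and 22.1 TPM in Ctrl and 28.9, 27.9 and 25.4 TPM in cKO (0.29 ± 0.05).

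Atg9b, one of the lipid scramblases that bring membrane to the growing autophagosome, had the lowest log2 fold change of the 49 genes. Atg9b (ENSMUSG00000038295, chromosome 5, 24589179 to 24597141) had 6.56, 5.89 and 6.29 TPM in the Ctrl libraries and 4.35, 5.05 and 4.25 TPM in the cKO libraries. The highest cKO library, replicate 2, was still below the lowest Ctrl library, and the log2 fold change was -0.44 ± 0.09 (SE, edgeR, adjusted p = 6.6e-05). Its paralog Atg9a had no row.

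Few genes of the conjugation system and its LC3 and GABARAP substrates had a row. Of 11 conjugation enzymes only Atg12, the ubiquitin-like protein joined to ATG5, had a row, with 25.4, 25.7 and 25.4 TPM in Ctrl and 33.0, 29.6 and 32.4 TPM in cKO and a log2 fold change of 0.33 ± 0.05 (SE, edgeR, adjusted p = 1.1e-06). Map1lc3b, the LC3 gene most used as an autophagosome marker, had 123, 117 and 124 TPM in Ctrl and 133, 135 and 134 TPM in cKO, a log2 fold change of 0.16 ± 0.03 (adjusted p = 4.3e-06). Its cKO libraries were tightly grouped above the Ctrl libraries. Gabarapl1, of the GABARAP branch, had 50.4, 52.8 and 51.4 TPM in Ctrl and 46.7, 45.2 and 48.8 TPM in cKO and a log2 fold change of -0.12 ± 0.05 (adjusted p = 0.0407). That call was lost with the replicate number as a block (adjusted p = 0.0534), in 4 scalings or tests listed in the closing section and when Ctrl replicate 2 (log2 fold change -0.10, adjusted p = 0.197) or Ctrl replicate 3 (-0.12, adjusted p = 0.0891) was left out. Leaving out cKO replicate 1 (-0.12, adjusted p = 0.0926) or else cKO replicate 2 (-0.09, adjusted p = 0.216) ended it too, by edgeR. The difference between the genes of the LC3 and GABARAP branches was not tested.

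Genes of fusion with the lysosome moved both ways. Vamp8, the lysosomal SNARE that pairs with syntaxin 17 on the autophagosome, had 183, 177 and 176 TPM in Ctrl and 161, 158 and 163 TPM in cKO, with a log2 fold change of -0.15 ± 0.04 (SE, edgeR, adjusted p = 0.00621; -0.19 to -0.10 over the scalings). Rab7b, a GTPase of late endosomes, had 22.7, 22.2 and 21.8 TPM in Ctrl and 24.5, 24.8 and 26.4 TPM in cKO (0.19 ± 0.04). Of 19 genes listed for fusion 10 had a row, of which 5 rose, 3 fell and 2, Ykt6 and Plekhm1, did not pass. Outside the KEGG pathways, the tethers Epg5 (0.34), Tecpr1 (0.29) and Vps39 (0.21) rose and Vps33a (-0.24) fell.

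**Figure D4:**
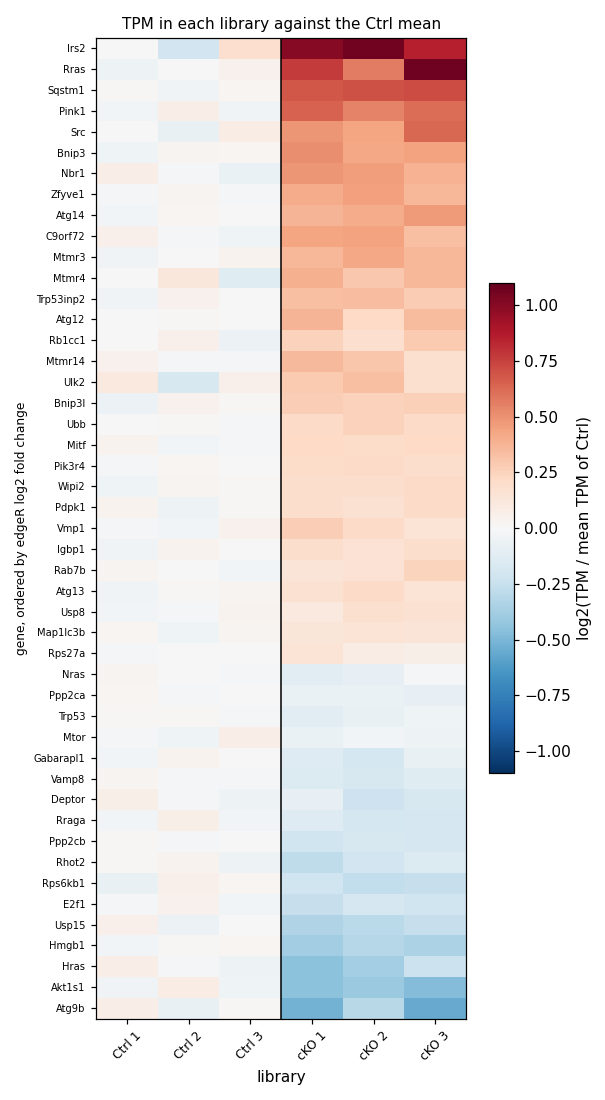
Log2 of TPM over the mean TPM of the Ctrl libraries (colour) for 47 of the 49 genes (rows, ordered by edgeR log2 fold change) in each library (columns, Ctrl left of the line, cKO right of it). The 3 cKO columns look alike, with single-library departures such as Rras in cKO replicate 3 at 16.1 TPM.

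The genes of mTORC1 and its direct sensors among the 49 lay below 0, whether they restrain or serve the complex. Akt1s1 (ENSMUSG00000011096, chromosome 7, 44498648 to 44504845) encodes PRAS40, an inhibitory subunit. It had 35.3, 38.6 and 35.3 TPM in the Ctrl libraries and 26.7, 27.5 and 26.2 TPM in the cKO libraries, and its log2 fold change was -0.42 ± 0.06 (SE, edgeR, adjusted p = 1.5e-07). Deptor, another inhibitor within the complex, had 8.94, 8.52 and 8.26 TPM in Ctrl and 8.03, 7.34 and 7.57 TPM in cKO (-0.15 ± 0.05, adjusted p = 0.0131). Its call was lost when Ctrl replicate 1 (-0.12, adjusted p = 0.115) or else cKO replicate 2 (-0.12, adjusted p = 0.0878) was left out. Rraga, a Rag GTPase that brings mTORC1 to the lysosome when amino acids are present, had 67.1, 71.6 and 67.2 TPM in Ctrl and 62.0, 60.0 and 60.5 TPM in cKO (-0.16 ± 0.04). Rps6kb1, the kinase S6K1 downstream of the complex, had 30.5, 33.7 and 32.9 TPM in Ctrl and 27.7, 26.8 and 27.1 TPM in cKO (-0.20 ± 0.04, adjusted p = 1.6e-05). The catalytic subunit Mtor had 23.8, 23.3 and 25.3 TPM in Ctrl and 23.0, 23.6 and 23.2 TPM in cKO, with overlap between the groups. Its log2 fold change of -0.08 ± 0.03 did not pass (adjusted p = 0.0689), but did with the authors' size factors (-0.12, adjusted p = 0.00201), with adjustment over the deposited rows alone (adjusted p = 0.0202) and without cKO replicate 2 (-0.09, adjusted p = 0.032).

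The wider list of mTORC1 regulators did not share that direction. Of 31 listed genes 14 had a row, of which 6 rose, 7 fell and 1 did not pass. Those that rose were outside the 49 genes. Sesn2, a leucine sensor that restrains mTORC1 and is induced by stress, went from 7.68 to 17.9 TPM (log2 fold change 1.23 ± 0.08, SE). Ddit4, the stress-induced inhibitor REDD1 that the selection rule leaves out by name, went from 10.2 to 20.0 TPM (0.98 ± 0.09). Eif4ebp1, the translation repressor that mTORC1 inactivates, went from 117 to 176 TPM (0.59 ± 0.04). Fnip2 (0.35), Fnip1 (0.15) and Lamtor2 (0.27) also rose, and Sesn1 (-0.33) and Lamtor5 (-0.20) fell. Lamtor1 fell as well (-0.13), but lost its call with RLE, upper-quartile factors and DESeq2 and without Ctrl replicate 3 or cKO replicate 1 (log2 fold changes from -0.15 to -0.11 with a library left out). By the table's KEGG annotation, 10 of the 49 genes also belong to mTOR signalling, of which 2 rose (Ulk2 and Pdpk1), 6 fell and 2 did not pass, with a median of -0.13. Of the 11 genes that also belong to the KEGG pathway of autophagy in other organisms, 6 rose, 4 fell and 1 did not pass. In neither pathway were 30 genes, of which 23 rose and 7 fell.

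Of the growth-factor input to AKT, Irs2 and Pdpk1 rose, Irs2 with the highest log2 fold change of the 49 genes. Irs2 (ENSMUSG00000038894, chromosome 8, 11034681 to 11058929), an adaptor of the insulin and IGF1 receptors, had 1.31, 1.14 and 1.50 TPM in the Ctrl libraries and 2.63, 2.74 and 2.38 TPM in the cKO libraries. The cKO libraries were all above the Ctrl libraries, at TPM levels among the lowest of the 49 genes, which gave a log2 fold change of 0.99 ± 0.11 (SE, edgeR, adjusted p = 1.7e-09), a fold of 1.98; on log2(FPKM + 1), which shrinks the change of genes at low levels, it was 0.54. Pdpk1, the kinase PDK1 that activates AKT, had 18.6, 17.4 and 18.3 TPM in Ctrl and 20.6, 20.3 and 20.9 TPM in cKO (0.21 ± 0.03, adjusted p = 4.7e-06). Of 18 genes listed for PI3K and AKT input 6 had a row, of which 3 rose and 3 fell.

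RAS genes moved in different directions. Rras (ENSMUSG00000038387, chromosome 7, 44665686 to 44671070), a RAS relative that acts on integrins, had 7.39, 7.68 and 7.93 TPM in the Ctrl libraries and 13.1, 11.4 and 16.1 TPM in the cKO libraries. Its cKO libraries spread widely, with replicate 3 highest, and lay above all Ctrl libraries, giving a log2 fold change of 0.84 ± 0.15 (SE, edgeR, adjusted p = 1.5e-05), from the lowest read level of the 49 genes at a mean of 7.35 CPM, counts scaled by library alone. Hras had 56.7, 53.1 and 51.7 TPM in Ctrl and 39.3, 41.4 and 45.6 TPM in cKO and a log2 fold change of -0.35 ± 0.05 (adjusted p = 8.8e-07). Nras had 71.3, 69.7 and 69.0 TPM in Ctrl and 64.6, 65.8 and 69.0 TPM in cKO, with overlapping groups, and its log2 fold change of -0.06 ± 0.03 did not pass (adjusted p = 0.145) except with the authors' size factors (-0.10, adjusted p = 0.00312), with adjustment over the deposited rows alone (adjusted p = 0.0424) and without cKO replicate 3 (-0.09, adjusted p = 0.0145).

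Among other kinases and phosphatases, Src, a tyrosine kinase that phosphorylates the mitophagy receptor FUNDC1, had 1.79, 1.69 and 1.89 TPM in Ctrl and 2.50, 2.42 and 2.77 TPM in cKO, with a log2 fold change of 0.53 ± 0.13 (SE, edgeR, adjusted p = 0.00127) at a level near that of Irs2, and 0.31 on log2(FPKM + 1). Both catalytic subunits of the phosphatase PP2A were lower, close paralogs between which reads could be split. Ppp2cb had 115, 112 and 113 TPM in Ctrl and 97.6, 100.2 and 99.7 TPM in cKO (-0.18 ± 0.03, adjusted p = 9.4e-06). Ppp2ca had 313, 303 and 309 TPM in Ctrl and 293, 293 and 289 TPM in cKO (-0.07 ± 0.02); its call was lost when Ctrl replicate 1 (-0.06, adjusted p = 0.106) or else cKO replicate 3 (-0.06, adjusted p = 0.0574) was left out. Igbp1, the alpha4 protein that binds and stabilises PP2A catalytic subunits, had 68.1, 71.7 and 70.2 TPM in Ctrl and 80.2, 78.1 and 80.1 TPM in cKO (0.20 ± 0.04, adjusted p = 0.00011). Of 26 genes listed for RAS, MAPK and other kinases 11 had a row, of which 4 rose, 6 fell and 1 did not pass. Of 10 genes listed for AMPK and its activators the only one with a row, the kinase Map3k7, is outside the 49 and fell (-0.14), a call lost with RLE, upper-quartile factors and DESeq2 and without Ctrl replicate 3 (log2 fold changes from -0.15 to -0.11 with a library left out). Of 9 genes listed for ubiquitin and stress-kinase input 5 had a row, none of them among the 49, and 2 rose and 3 fell.

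The remaining genes were regulators of cell death and transcription. Hmgb1 (ENSMUSG00000066551, chromosome 5, 148983512 to 148989867), a chromatin protein that also binds Beclin 1 and serves as an alarm signal outside the cell, had 355, 365 and 367 TPM in the Ctrl libraries and 278, 292 and 285 TPM in the cKO libraries. Its log2 fold change was -0.33 ± 0.02 (SE, edgeR, adjusted p = 4e-16), with no overlap. Trp53inp2, a nuclear protein that moves to autophagosomes and binds LC3, had 7.13, 7.54 and 7.28 TPM in Ctrl and 9.21, 9.28 and 8.89 TPM in cKO (0.35 ± 0.07, adjusted p = 2.7e-05). Trp53 itself had 256, 256 and 251 TPM in Ctrl and 233, 240.0 and 246 TPM in cKO (-0.07 ± 0.02), and its call was lost when Ctrl replicate 1 (-0.07, edgeR adjusted p = 0.0821), Ctrl replicate 2 (-0.06, adjusted p = 0.0992) or else cKO replicate 1 (-0.05, adjusted p = 0.188) was left out. Mitf, of the TFEB family that activates lysosomal and autophagy genes, had 14.6, 13.9 and 14.0 TPM in Ctrl and 16.5, 16.3 and 16.4 TPM in cKO (0.23 ± 0.05, adjusted p = 6.7e-05). E2f1, a cell-cycle factor that can activate Bnip3, had 36.4, 38.1 and 36.2 TPM in Ctrl and 30.9, 32.5 and 31.6 TPM in cKO (-0.21 ± 0.04, adjusted p = 0.0001), so that E2f1 and Bnip3 moved in opposite directions. Of 13 cell death regulators listed 6 had a row, of which 4 rose and 2 fell, and of 13 transcription factors 4 had a row, of which 3 rose and 1 fell; those outside the 49 were led by Atf4 (0.85), the transcription factor of the integrated stress response.

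Divided by role, the 28 genes in the lists of the machinery itself (initiation to fusion, cargo and mitophagy) and the 21 others differed in their counts. Of the 28, 22 rose and 6 fell (median log2 fold change 0.23). Of the 21 regulators and signalling genes, 8 rose, 11 fell and 2 did not pass, with a median of -0.07. The median over all genes fitted was -0.08, with 46.4% higher. The difference between these groups was not tested. The lists were chosen with earlier results of these data known, so the split is not independent of the values. Decreases lost with DESeq2 included Gabarapl1, Vamp8 and Rhot2 among the 6, and Ppp2ca, Trp53, Deptor and Rraga among the 11. Counting all rows of the machinery lists, including those outside the KEGG rule, 30 of 46 rose, 13 fell and 3 did not pass (median 0.21), and among the 18 that are not members 8 rose, 7 fell and 3 did not pass.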

How the data were processed

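RNA sequencing of 6 libraries gave 1 deposited table. The submitters' processing notes name the build mm39, Bowtie2 2.4.5 and DESeq2 1.34.0; no read counter is named. The authors deposited expected counts (not normalized; 11.1% are not whole, tolerance 1e-06), FPKM, TPM, a normalized count (a signal: counts over size factors) and the authors' log2 fold change with its q-value and p-value, all as the file headers name them. The q-values matched an adjustment over 15835 genes. The design had assumed all genes; the table holds 4656 called ones, so normalization and dispersions rest on these. The strand column differed from RefSeq for 8 of 38 genes and was not used.

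Expected counts were rounded and tested with edgeR 4.0.16 (R 4.3.3; TMM, filterByExpr, 4641 genes kept, all 49 members among them) at an adjusted p of 0.05. Alternatives used limma 3.58.1, DESeq2 1.42.0, other scalings, filters and members, and left out each replicate. The edgeR script was tested on simulated data in which few genes changed, unlike the rows used here, most of which were called. Python 3.11.15, pandas 2.3.3, NumPy 2.4.6 and matplotlib 3.10.9 did the rest. Replicate numbers were not taken as pairs of libraries in the main test.

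Members and role lists were chosen with earlier results of these data known. Library values are given for the machinery lists, for the 10 highest and 10 lowest members with at least 5 CPM, and for other members from an absolute log2 fold change of 0.4; further members were added, and a few genes are not reported here by name, though counted.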

Additional observations from a re-analysis of the deposited data

How the results depend on the processing

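All 30 increases were called in every alternative, and no gene reversed; of 980 values of single genes under an alternative, 928 kept their call, 46 lost it and 6 gained one, in 11 genes. Over all genes fitted the count of increases also stayed near 2155 across scalings and with a library left out. Among the 49 genes the count of decreases was 17, and 10 with RLE or upper-quartile factors and 8 with DESeq2. The median log2 fold change of the 49 genes, 0.20, was 0.2336 with RLE, 0.2436 with upper-quartile factors, 0.2333 with DESeq2, 0.1553 with the authors' size factors and 0.1819 on log2(FPKM + 1). These shifts exceed the SD between cKO libraries (0.00755); those of the scalings follow from the factors, which move all genes together, and the cause of the last was not tested. Leaving out a library gave 42 to 46 calls, 12 to 16 decreases, 30 increases and medians from 0.1877 to 0.2093. The lowest median, without Ctrl replicate 1, and the highest, without cKO replicate 2, also moved by more than that SD. Gabarapl1 lost its call with RLE, upper-quartile factors, library size alone and DESeq2. Other memberships gave other counts by construction. Without the exceptions 27 fell. With all genes of the mitophagy pathway, shared with autophagy or not, 22 were called, 13 higher and 9 lower (median 0.1586). With the machinery lists alone 28 were called and 6 fell (median 0.2293).

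The replicate block left 46 calls, 30 higher and 16 lower (median 0.1972). Same-numbered libraries did not deviate together (correlations 0.0538, -0.0358 and -0.0505). The labels do not say whether equal numbers share a preparation, and correlations over rows chosen for a group difference cannot settle it. The depth of whole libraries is unknown, and levels near those of Src and Rras carry the widest errors.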

Other observations

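Of the 24 rows of the same KEGG pathways that the selection leaves out, 12 were higher, 10 lower and 2 not called in cKO (edgeR with TMM, adjusted p under 0.05). Of all genes fitted 46.4% were higher and 50.2% lower. The 12 increases kept their call in every fit. Most of the 10 decreases lost theirs with DESeq2, while Akt1, Akt2 and Eif2s1 (log2 fold change -0.17) kept it. Atf4, the transcription factor of the integrated stress response, went from 287 to 514 TPM (log2 fold change 0.85 ± 0.02, SE), and the reticulum stress sensors Ern1 and Eif2ak3 had log2 fold changes of 0.74 and 0.43. The AKT kinases Akt1 (-0.29) and Akt2 (-0.30) fell. Of the anti-apoptotic genes, Cflar (0.48), Bcl2 (0.35) and Bcl2l1 (0.29) rose. The lysosomal membrane protein Lamp2 rose (0.29), while the decrease of its paralog Lamp1 (-0.07) was lost with RLE, upper-quartile factors and DESeq2.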
